A study of Mus musculus with 9 samples.

Results

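Enzymes that cut the extracellular matrix, the proteins that inhibit them and the enzymes that crosslink it were followed in mouse gastrocnemius, a calf muscle, as a set of gene families. The members were all gene symbols of the count files that carry a family name: matrix metalloproteinases (Mmp), ADAMTS proteases (Adamts), the ADAMTS-like proteins (Adamtsl), the tissue inhibitors of metalloproteinases (Timp) and the lysyl oxidases (Lox and Loxl). This gave 56 of 23238 symbols, namely 23 Mmp, 19 Adamts, 5 Adamtsl, 4 Timp and 5 lysyl oxidase genes. All mice were female C57BL/6, an inbred strain, bought at 4 weeks of age and kept for 7 days before treatment, with 3 libraries in each of 3 groups. RP mice received 3 mg/kg of cisplatin, a platinum chemotherapy drug, in 4 intraperitoneal injections given every other day, and 100 mg/kg of RP by mouth for 9 days. The labels do not spell out RP, and the title of the series names an extract of Paeonia lactiflora, the garden peony. Cisplatin mice received the same injections with water by mouth, and Normal mice received saline injections and water. No group received RP without cisplatin, and the labels do not say that each library came from 1 mouse, so p-values measure the spread between these libraries.

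MMPs and ADAMTS proteases are zinc enzymes that cut collagens, proteoglycans and other matrix proteins, and most are made as inactive precursors. TIMPs bind their active sites and block them, while ADAMTS-like proteins resemble the non-catalytic part of ADAMTS proteases and cut nothing. Lysyl oxidases oxidise lysines of collagen and elastin so that the fibres become crosslinked. In muscle these genes are expressed largely by fibroblasts and other cells between the fibres, and by the fibres themselves.

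Libraries held 8196030 to 10678342 counts of 3′ tags, read near transcript ends, so levels (CPM, counts scaled to library size with TMM) need no division by gene length and levels of different genes can be set side by side. Summed CPM of 8 muscle fibre markers came to 90891 to 102825 CPM in RP, 62517 to 76267 CPM in Cisplatin and 90030.1 to 99079 CPM in Normal, so these markers were abundant in every library. Libraries differed in globin reads: Hba-a1, an alpha globin, had 46.8 to 259 CPM in RP, 24.6 to 40.2 CPM in Cisplatin and 2713 to 5595 CPM in Normal, and its part in the results was not tested. Of the 56 symbols, 34 passed the filter on low counts and were tested, 17 others had at least 1 read, and Adamtsl2, Mmp10, Mmp1a, Mmp1b and Mmp7 had no read in any library. The filter keeps a gene that is high in 1 group only, so counts over the 34 describe them and are no test of the families.

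In Cisplatin against Normal, 19 of the 34 tested members fell, 3 rose and 12 were not called, by edgeR's quasi-likelihood test with Benjamini-Hochberg adjustment over 12859 genes and a threshold of 0.05. Over all genes 54.5% were called, 28.2% lower and 26.3% higher. The median log2 fold change of the 34 was -1.33, beside -0.076 over all genes. The genes that fell were Timp2, Timp3 and Timp4, 5 Mmp genes (Mmp2, Mmp15, Mmp16, Mmp19 and Mmp23), 4 Adamts genes (Adamts2, Adamts3, Adamts8 and Adamts10), 3 Adamtsl genes (Adamtsl1, Adamtsl3 and Adamtsl5) and Loxl1 to Loxl4. The genes that rose were Lox, Adamts9 and Mmp8.

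In RP against Cisplatin, 16 of the 34 rose, 4 fell and 14 were not called, where 48.8% of all genes were called, 24.6% higher and 24.2% lower. Their median log2 fold change was 1.03, beside 0.068 over all genes. This comparison shares its Cisplatin libraries with the one above, so the values of both are given side by side and an opposite sign is not independent evidence. In RP against Normal none of the 34 was called, where 0.505% of all genes were. An unadjusted p under 0.05 was found there for 8 of the 34, beside 1649 of all 12859 genes tested. DESeq2 and edgeR without the filter each called 2 members there, Timp2 and Adamtsl4, both lower in RP.

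Groups did not overlap at all in many members. In Cisplatin against Normal every Cisplatin library lay below every Normal library in 23 of the 34 and above in 2, while 62.2% of all genes were non-overlapping in either direction. In RP against Cisplatin the RP libraries lay above in 18 and below in 4, beside 56.8% of all genes. In RP against Normal they lay below in 6 and above in 0, beside 19.2% of all genes.

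**Figure D1:**
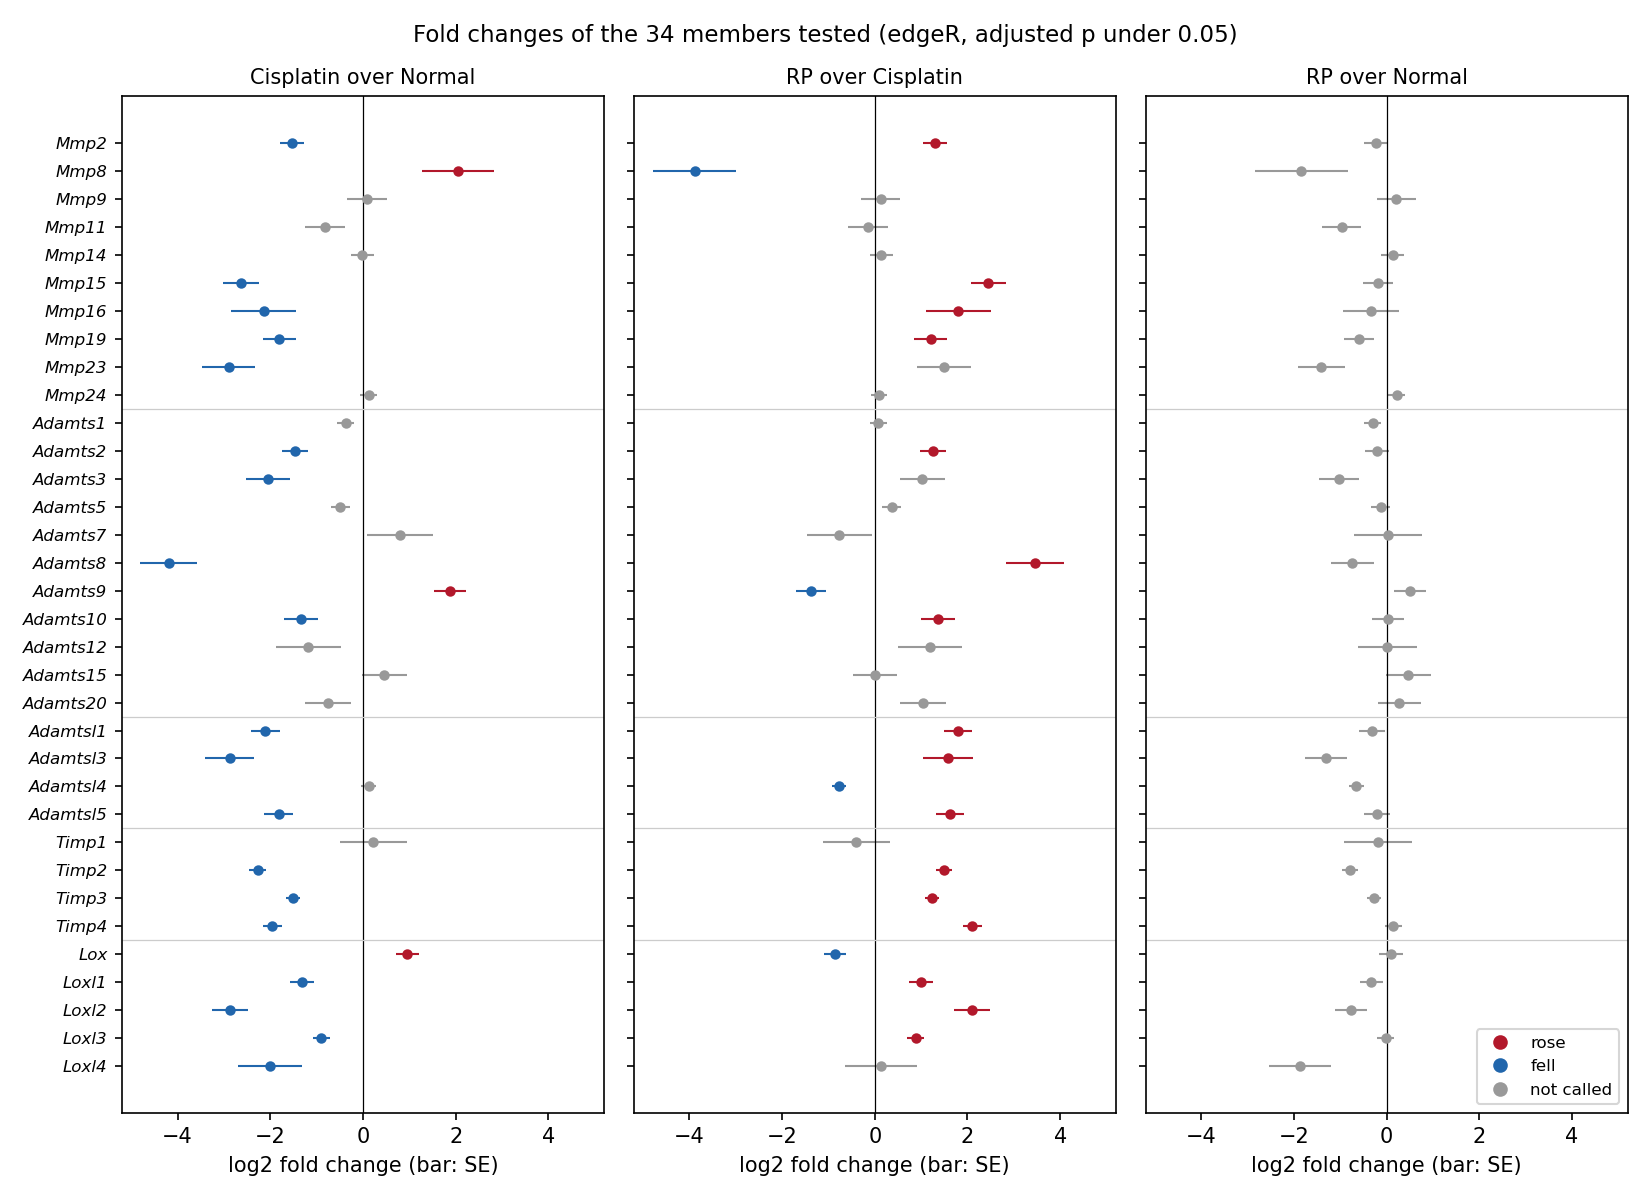
Log2 fold changes of the 34 tested members (x axis; bars, SE; 3 libraries a group) in Cisplatin over Normal, RP over Cisplatin and RP over Normal, ordered by family from top to bottom, with red for genes that rose, blue for genes that fell and grey for genes not called. Timp2 lies at -2.27, 1.49 and -0.78, and all points of RP over Normal are grey.

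The inhibitors held most of the reads of the set. Timp3 (chr10:86300372-86349506, plus strand, GRCm38), whose protein stays bound to the matrix and also inhibits ADAMTS proteases, had 495, 447 and 428 CPM in the RP libraries, 241, 167 and 173 CPM in the Cisplatin libraries and 548, 595 and 509.9 CPM in the Normal libraries. Every Cisplatin library was below every RP and every Normal library. The log2 fold change was -1.51 ± 0.16 (adjusted p = 4.00e-06) in Cisplatin against Normal and 1.24 ± 0.15 (adjusted p = 2.90e-05) in RP against Cisplatin. Timp3 lies inside the gene Syn3 on the other strand, with an exon of Syn3 within the last 1000 bases of Timp3, and since no strand setting is given reads of both cannot be told apart. In bulk tissue, fewer cells of a type and less RNA per cell cannot be told apart for this gene or any other.

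Timp2 (chr11:118301069-118355740, minus strand), whose protein inhibits MMPs and also takes part in activating the precursor of MMP2 at the cell surface, had 257, 319.9 and 267 CPM in the RP libraries, 125, 98.1 and 77.1 CPM in the Cisplatin libraries and 542, 484 and 423 CPM in the Normal libraries. The 3 groups formed separate ranges, with RP between Cisplatin and Normal. Timp2 fell in Cisplatin against Normal by a log2 of 2.27 ± 0.18 (adjusted p = 4.29e-07) and rose in RP against Cisplatin by 1.49 ± 0.18 (adjusted p = 1.82e-05). RP against Normal gave -0.78 ± 0.17 (adjusted p = 0.0700), which was not called. That adjusted p crossed the threshold without the filter (0.00501), in DESeq2 (0.00205), with RP and Normal fitted alone (0.0391), with the replicate number as a block (0.0490) and without Cisplatin replicate 3 (0.0272).

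Timp4 (chr6:115241892-115252205, minus strand), an inhibitor known for its expression in heart and skeletal muscle, had 66.4, 62.5 and 42.8 CPM in the RP libraries, 13.0, 11.4 and 15.6 CPM in the Cisplatin libraries and 42.4, 50.6 and 62.0 CPM in the Normal libraries. Cisplatin libraries were again below all others, while the RP and Normal ranges overlapped. Its log2 fold change was -1.96 ± 0.20 (adjusted p = 4.39e-06) in Cisplatin against Normal, 2.10 ± 0.20 (adjusted p = 3.78e-06) in RP against Cisplatin and 0.15 ± 0.19 (adjusted p = 0.802) in RP against Normal. Timp1, the inhibitor most known for induction in injured tissue, had 13, 29 and 2 reads in the RP libraries, 22, 23 and 9 reads in the Cisplatin libraries and 19, 5 and 18 reads in the Normal libraries. These ranges overlapped in every pair of groups, and no call was made, with log2 fold changes of 0.22 ± 0.72 (adjusted p = 0.817) in Cisplatin against Normal and -0.40 ± 0.72 (adjusted p = 0.672) in RP against Cisplatin.

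Summed over the 4 genes, the TIMPs came to 820.3, 832 and 738 CPM in the RP libraries, 382, 279 and 267 CPM in the Cisplatin libraries and 1134, 1130.1 and 997 CPM in the Normal libraries. The Cisplatin sums lay below all others. TIMPs made up 66.3 ± 2.76% in RP, 48.5 ± 3.21% in Cisplatin and 69.3 ± 1.81% in Normal of the CPM of all 56 symbols (SD, n = 3 each), and the 3 Cisplatin shares were the 3 lowest. The lysyl oxidases made up 6.50 ± 0.286% in RP, 11.8 ± 0.978% in Cisplatin and 5.81 ± 0.668% in Normal and the ADAMTS proteases 12.5 ± 1.73% in RP, 19.4 ± 2.10% in Cisplatin and 11 ± 0.672% in Normal. A higher share here was not a higher level, since the ADAMTS sums came to 128 to 186 CPM in RP, 91.5 to 147 CPM in Cisplatin and 164 to 184 CPM in Normal, all Cisplatin sums below all Normal sums. Summed CPM of all 56 symbols was 1190.1, 1313 and 1111 CPM in the RP libraries, 775, 620.3 and 520.5 CPM in the Cisplatin libraries and 1663, 1583 and 1459 CPM in the Normal libraries.

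**Figure D2:**
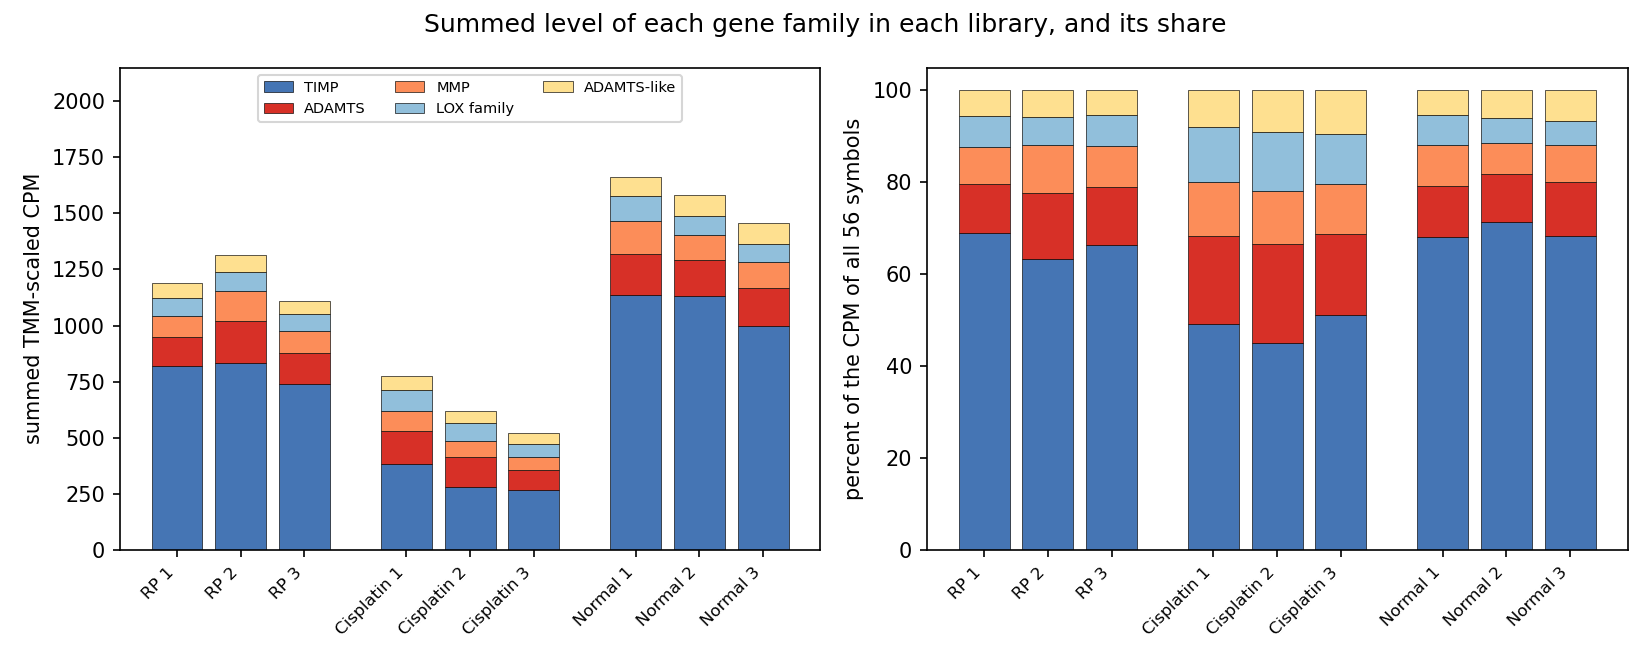
Summed TMM-scaled CPM of each family in each library (left) and the share of each family in the CPM of all 56 symbols (right, percent), with 1 bar per library in the order RP, Cisplatin and Normal. TIMPs are the largest part of every bar, with mean shares of 66.3 ± 2.76% in RP, 48.5 ± 3.21% in Cisplatin and 69.3 ± 1.81% in Normal.

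Of the 23 Mmp genes, 10 were tested. Mmp2 (chr8:92827291-92853420, plus strand), a gelatinase that cuts denatured collagen and collagen of basement membranes, had 29.6, 56.9 and 34.3 CPM in the RP libraries, 18.7, 19.3 and 11.1 CPM in the Cisplatin libraries and 57.1, 41.2 and 43.2 CPM in the Normal libraries. All Cisplatin libraries lay below the others, and RP replicate 2 was close to the highest Normal library. The log2 fold change was -1.52 ± 0.26 (adjusted p = 2.62e-04) in Cisplatin against Normal and 1.30 ± 0.26 (adjusted p = 0.00108) in RP against Cisplatin. Mmp9, the other gelatinase, was detected at 30, 41 and 29 reads in the RP libraries, 35, 34 and 16 reads in the Cisplatin libraries and 39, 17 and 17 reads in the Normal libraries, with overlapping groups. It was not called, at 0.088 ± 0.43 (adjusted p = 0.879) in Cisplatin against Normal and 0.13 ± 0.42 (adjusted p = 0.825) in RP against Cisplatin.

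Membrane-type MMPs are anchored in the cell surface. Mmp14, which activates the MMP2 precursor there, had 26.7, 31.5 and 29.6 CPM in the RP libraries, 36.8, 20.1 and 22.8 CPM in the Cisplatin libraries and 37.9, 19.7 and 22.6 CPM in the Normal libraries. The ranges overlapped and the gene was not called, with -0.012 ± 0.26 (adjusted p = 0.973) in Cisplatin against Normal and 0.14 ± 0.25 (adjusted p = 0.668) in RP against Cisplatin. Mmp24 was also not called, at 16.0 ± 1.61 CPM in RP, 15 ± 0.830 CPM in Cisplatin and 13.8 ± 2.31 CPM in Normal (SD, n = 3 each), and BC029722 on the other strand has an exon near its end. Mmp15 (chr8:95352268-95375080, plus strand), a close relative of Mmp14, had 8.27, 7.85 and 4.14 CPM in the RP libraries, 1.18, 1.71 and 0.714 CPM in the Cisplatin libraries and 8.58, 8.33 and 6.14 CPM in the Normal libraries. Here the Cisplatin libraries were separate from all others. Mmp15 fell in Cisplatin against Normal, at -2.64 ± 0.39 (adjusted p = 7.41e-05), and rose in RP against Cisplatin, at 2.45 ± 0.39 (adjusted p = 1.77e-04).

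Mmp16, a further membrane-type enzyme, had 20, 11 and 7 reads in the RP libraries, 1, 6 and 3 reads in the Cisplatin libraries and 14, 8 and 19 reads in the Normal libraries. It was called in Cisplatin against Normal (-2.14 ± 0.70, adjusted p = 0.0196) and RP against Cisplatin (1.80 ± 0.71, adjusted p = 0.0485), on few reads. The first call was lost without Normal replicate 3 (adjusted p = 0.0842), Cisplatin replicate 1 (0.0737) or Cisplatin replicate 3 (0.0503). The RP against Cisplatin call was lost without any one of 7 libraries, all but Cisplatin replicate 2 and RP replicate 3, with adjusted p up to 0.207. It was also lost in DESeq2 (0.0628), with RLE scaling (0.0501), without the filter (0.0709) and with the replicate number as a block (0.0848).

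Mmp19 (chr10:128790910-128800824, plus strand), an MMP that cuts components of basement membranes, had 6.10, 9.63 and 7.77 CPM in the RP libraries, 4.82, 3.99 and 1.31 CPM in the Cisplatin libraries and 11.5, 11.4 and 12.8 CPM in the Normal libraries. The 3 groups formed separate ranges with RP in the middle. Its log2 fold change was -1.81 ± 0.35 (adjusted p = 6.95e-04) in Cisplatin against Normal, 1.20 ± 0.35 (adjusted p = 0.0120) in RP against Cisplatin and -0.60 ± 0.33 (adjusted p = 0.472) in RP against Normal. The RP against Cisplatin call was lost without RP replicate 2 (adjusted p = 0.0508). Tmem198b on the other strand has an exon near the end of Mmp19. Mmp23 had 8, 27 and 15 reads in the RP libraries, 5, 5 and 6 reads in the Cisplatin libraries and 51, 20 and 41 reads in the Normal libraries, fell in Cisplatin against Normal (-2.90 ± 0.57, adjusted p = 7.57e-04) and missed the threshold in RP against Cisplatin (1.49 ± 0.59, adjusted p = 0.0502). That adjusted p passed the threshold with library size only (0.0369), without the filter (0.0456), without Normal replicate 2 (0.0409) and without RP replicate 1 (0.0261).

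Mmp11, stromelysin 3, was not called in any comparison, with 18, 35 and 13 reads in the RP libraries, 25, 30 and 13 reads in the Cisplatin libraries and 27, 39 and 44 reads in the Normal libraries. In reads its Cisplatin and Normal ranges overlapped. In CPM its Cisplatin libraries (2.94, 2.85 and 1.55) were below its Normal libraries (3.26, 4.51 and 5.29) without reaching the threshold (-0.82 ± 0.43, adjusted p = 0.118).

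A run of 10 Mmp genes lies on chromosome 9 (chr9:7272514-7699585, GRCm38, 427 kb) with no other protein-coding gene between them. It holds collagenases, stromelysins and matrilysin, MMPs best known for induction in inflamed tissue, and 9 of the 10 were at 0 or did not pass the filter. AP-1, a dimer of Fos and Jun proteins, is the transcription factor classically tied to several of these promoters. Its letters TGANTCA, which read the same on both strands, were present in the 250 bases before a RefSeq start of 8 of these genes, 4 of which had no read in any library. Those 8 are shown because they are the only members among 37 with a promoter in the RefSeq table (GRCm38.p6) that hold the letters, which is 21.6% of members beside 7.82% of 27025 genes and 6.75% of 32851 windows of the same length. For Mmp12 and Mmp7 RefSeq also gives another promoter without the letters (chr9:7344147-7344446 and chr9:7692091-7692390). The Mmp12 match lies inside the gene as GENCODE places it (chr9:7344381-7369499). Each stretch runs 5′ to 3′ on the strand of its gene, with the AP-1 letters in capitals.
Mmp13, chr9:7272459-7272505, plus strand: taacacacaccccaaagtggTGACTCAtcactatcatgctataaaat
Mmp12, chr9:7347310-7347356, plus strand: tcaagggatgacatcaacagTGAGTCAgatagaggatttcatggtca
Mmp1b, chr9:7388093-7388139, minus strand: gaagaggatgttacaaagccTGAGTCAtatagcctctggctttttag
Mmp3, chr9:7445756-7445802, plus strand: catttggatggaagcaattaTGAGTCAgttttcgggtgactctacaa
Mmp1a, chr9:7464048-7464094, plus strand: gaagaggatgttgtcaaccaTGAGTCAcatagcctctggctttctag
Mmp10, chr9:7502259-7502305, plus strand: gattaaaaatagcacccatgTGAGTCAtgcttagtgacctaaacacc
Mmp20, chr9:7628116-7628162, plus strand: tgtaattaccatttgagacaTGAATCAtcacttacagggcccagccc
Mmp7, chr9:7692007-7692053, plus strand: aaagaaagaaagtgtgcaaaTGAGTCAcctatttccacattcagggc

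Mmp1a, annotated as a polymorphic pseudogene, and Mmp1b are close relatives and had no reads. None of the 20 tested members with a promoter in the table held the letters. A match is only a match of letters, and its absence says nothing of the factor. The 8 genes together had 8, 11 and 12 reads in the RP libraries, 3, 6 and 0 reads in the Cisplatin libraries and 33, 7 and 16 reads in the Normal libraries. The 3 Cisplatin libraries had the fewest. Most of the reads came from Mmp13, the main interstitial collagenase of rodents, with 4, 0 and 0 reads in the RP libraries, 2, 0 and 0 reads in the Cisplatin libraries and 17, 0 and 11 reads in the Normal libraries, and from Mmp3, stromelysin 1, with 3, 11 and 8 reads in the RP libraries, 1, 4 and 0 reads in the Cisplatin libraries and 14, 7 and 5 reads in the Normal libraries. Neither passed the filter. Of the alternatives, DESeq2 called Mmp3 lower in Cisplatin against Normal (-2.55 on the log2 scale, adjusted p = 0.0470), whereas edgeR without the filter did not.

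Mmp8, the neutrophil collagenase (chr9:7558456-7568485, plus strand), was the only gene of the chromosome 9 run that passed the filter, with 2, 2 and 2 reads in the RP libraries, 49, 31 and 7 reads in the Cisplatin libraries and 13, 1 and 5 reads in the Normal libraries. Every RP library was below every Cisplatin library, while the Cisplatin and Normal ranges overlapped. The log2 fold change was 2.05 ± 0.77 (adjusted p = 0.0365) in Cisplatin against Normal and -3.89 ± 0.90 (adjusted p = 0.00284) in RP against Cisplatin. Without Normal replicate 1 the first of these was 3.12, and without Cisplatin replicate 1 they were 1.33 and -3.16. The Cisplatin against Normal call was lost with these groups fitted alone (adjusted p = 0.0503) and without Normal replicate 2 (0.113), Normal replicate 3 (0.104), Cisplatin replicate 1 (0.213), Cisplatin replicate 2 (0.0658) or RP replicate 1 (0.0501). Summed CPM of 8 neutrophil markers was 11.5, 4.37 and 11 CPM in the RP libraries, 68.6, 52.3 and 10.7 CPM in the Cisplatin libraries and 48.3, 4.16 and 41.8 CPM in the Normal libraries. Of the 4 markers tested, 1 (Retnlg) rose in Cisplatin against Normal, where 26.3% of all genes rose. All 4 fell in RP against Cisplatin, where 24.2% of all genes fell. The count of 4 was 1 without Cisplatin replicate 1, Cisplatin replicate 2 or RP replicate 2, and 2 without RP replicate 1 or RP replicate 3. The count of 1 in Cisplatin against Normal was 2 without Normal replicate 2 or any 1 RP library. The part of neutrophils in the Mmp8 values was not tested.

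**Figure D3:**
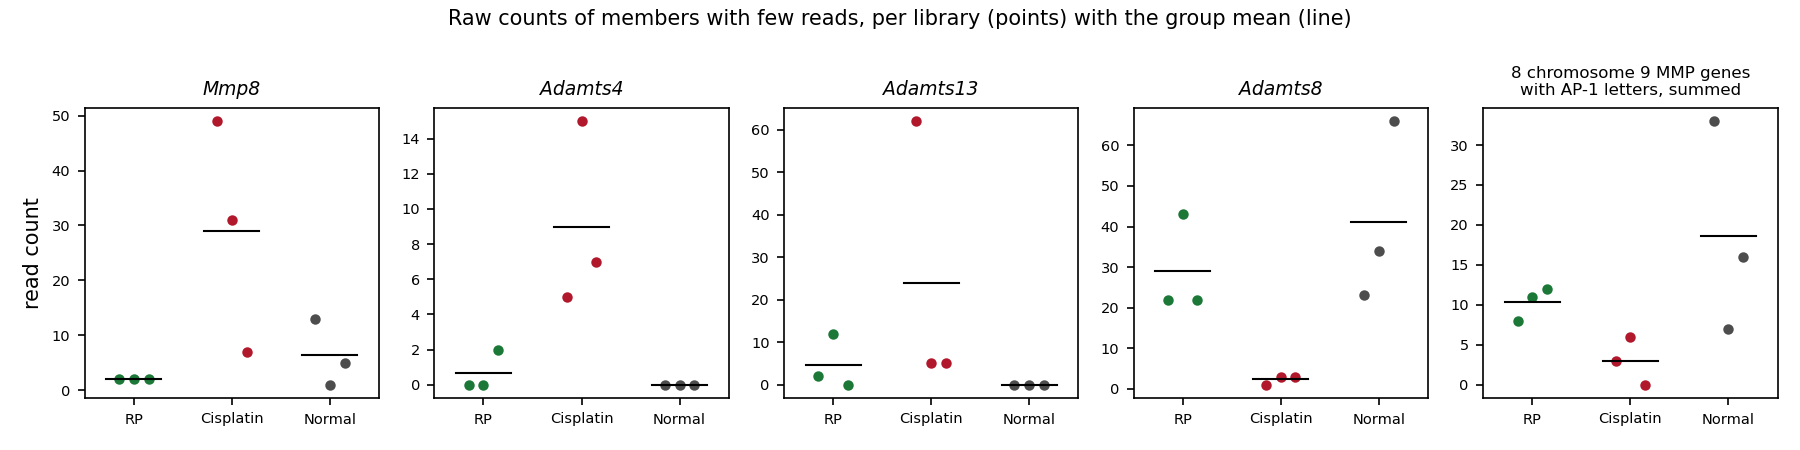
Raw read counts (y axis, a separate scale in each panel) of Mmp8, Adamts4, Adamts13 and Adamts8 and the summed counts of the 8 chromosome 9 Mmp genes with AP-1 letters, with 1 point per library and a line at the group mean. Adamts4 and Adamts13 have no read in the 3 Normal libraries, and 62 of the 72 Adamts13 reads of Cisplatin come from 1 library.

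Among the ADAMTS proteases, Adamts2 (chr11:50602084-50807573, plus strand) and Adamts3 remove the amino-terminal propeptide of fibrillar procollagens. Adamts2 had 22.0, 40.4 and 21.3 CPM in the RP libraries, 13.7, 9.32 and 11.9 CPM in the Cisplatin libraries and 43.5, 28.3 and 24.5 CPM in the Normal libraries. All Cisplatin libraries were below the others, and RP and Normal overlapped. Its log2 fold change was -1.47 ± 0.28 (adjusted p = 6.02e-04) in Cisplatin against Normal and 1.26 ± 0.28 (adjusted p = 0.00208) in RP against Cisplatin. Adamts3, at 1.45, 3.77 and 2.22 CPM in the RP libraries, 0.940, 0.951 and 1.78 CPM in the Cisplatin libraries and 6.28, 5.67 and 3.25 CPM in the Normal libraries, fell in Cisplatin against Normal (-2.05 ± 0.47, adjusted p = 0.00235). RP and Cisplatin libraries overlapped for Adamts3, and the comparison was not called (1.02 ± 0.48, adjusted p = 0.0936).

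Adamts9 (chr6:92772699-92943492, minus strand), a versican-cutting protease, went the other way, with 5.58, 6.75 and 2.83 CPM in the RP libraries, 14.6, 15.8 and 8.80 CPM in the Cisplatin libraries and 3.38, 4.39 and 2.89 CPM in the Normal libraries. Every Cisplatin library was above every RP and Normal library. It rose in Cisplatin against Normal (1.87 ± 0.34, adjusted p = 4.17e-04) and fell in RP against Cisplatin (-1.37 ± 0.33, adjusted p = 0.00348). Adamts8, of the same proteoglycan-cutting group, had 22, 43 and 22 reads in the RP libraries, 1, 3 and 3 reads in the Cisplatin libraries and 23, 34 and 66 reads in the Normal libraries, and the Cisplatin libraries were again apart, at 1 to 3 reads. Its log2 fold change was -4.19 ± 0.62 (adjusted p = 7.89e-05) in Cisplatin against Normal and 3.45 ± 0.63 (adjusted p = 5.51e-04) in RP against Cisplatin. The most abundant of that group were not called: Adamts1 averaged 60.6 ± 15.8 CPM in RP, 57.6 ± 11 CPM in Cisplatin and 74.5 ± 6.15 CPM in Normal, and Adamts5, another aggrecan-cutting protease, averaged 33.0 ± 3.22 CPM in RP, 25.5 ± 8.28 CPM in Cisplatin and 36.0 ± 3.19 CPM in Normal (SD, n = 3 each).

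For Adamts1 and Adamts5 the Cisplatin libraries did lie below the Normal libraries, at -0.37 ± 0.19 (adjusted p = 0.107) and -0.49 ± 0.21 (adjusted p = 0.0606). The value of Adamts5 passed the threshold without the filter (adjusted p = 0.0422), with a filter of 5 CPM (0.0386) and without Cisplatin replicate 1 (0.0281). Adamts10, which binds fibrillin microfibrils, had 6.20, 7.95 and 6.96 CPM in the RP libraries, 3.64, 3.14 and 1.31 CPM in the Cisplatin libraries and 9.78, 5.78 and 5.05 CPM in the Normal libraries. Cisplatin libraries were below all others, with -1.34 ± 0.37 (adjusted p = 0.00775) in Cisplatin against Normal and 1.37 ± 0.37 (adjusted p = 0.00737) in RP against Cisplatin. Without Normal replicate 1, the highest library, the Cisplatin against Normal call was lost (adjusted p = 0.0532). Adamts7, Adamts12, Adamts15 and Adamts20 were tested at low counts and not called in any comparison.

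Adamts4 and Adamts13 did not pass the filter, yet had reads mainly in Cisplatin. Adamts4, an aggrecan-cutting protease (chr1:171250421-171260637, plus strand), had 0, 0 and 2 reads in the RP libraries, 5, 15 and 7 reads in the Cisplatin libraries and 0, 0 and 0 reads in the Normal libraries. Set against a floor of 3 counts over the Normal group, it was at least 8.28-fold higher in Cisplatin. Adamts13, which cuts von Willebrand factor in blood, had 2, 12 and 0 reads in the RP libraries, 62, 5 and 5 reads in the Cisplatin libraries and 0, 0 and 0 reads in the Normal libraries. Its Cisplatin level was at least 22.1-fold above the same floor, but 62 of the 72 reads came from Cisplatin replicate 1. Both were called higher in Cisplatin against Normal without the filter and in DESeq2. Both settings also called Adamts4 lower in RP against Cisplatin, and the fit without the filter called Adamts13 lower there. The other 15 untested members with reads had at most 28 reads in a group.

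Of the 5 ADAMTS-like genes, 4 were tested. Adamtsl1 had 26.7, 30.5 and 16.7 CPM in the RP libraries, 8.46, 6.46 and 6.42 CPM in the Cisplatin libraries and 37.4, 37.6 and 16.7 CPM in the Normal libraries. Its Cisplatin libraries were all below the others, while Normal replicate 3 was at the level of the lowest RP library. The log2 fold change was -2.10 ± 0.31 (adjusted p = 7.61e-05) in Cisplatin against Normal and 1.79 ± 0.31 (adjusted p = 3.53e-04) in RP against Cisplatin. Adamtsl5, which binds fibrillin, had 13.5, 18.8 and 16.0 CPM in the RP libraries, 5.17, 5.89 and 4.52 CPM in the Cisplatin libraries and 13.0, 13.2 and 29.2 CPM in the Normal libraries, with the Cisplatin libraries again separate. It fell in Cisplatin against Normal (-1.82 ± 0.31, adjusted p = 2.28e-04) and rose in RP against Cisplatin (1.63 ± 0.31, adjusted p = 6.81e-04).

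Adamtsl4 (chr3:95676201-95687917, minus strand), which takes part in laying down fibrillin microfibrils and is mutated in a human lens disorder, had 24.2, 24.9 and 26.1 CPM in the RP libraries, 48.1, 43.1 and 37.2 CPM in the Cisplatin libraries and 32.1, 39.8 and 46.1 CPM in the Normal libraries. The RP libraries were the lowest 3, and Cisplatin and Normal overlapped. It was not called in Cisplatin against Normal (0.12 ± 0.16, adjusted p = 0.536), fell in RP against Cisplatin (-0.77 ± 0.16, adjusted p = 0.00135) and was not called in RP against Normal (-0.65 ± 0.16, adjusted p = 0.103). In RP against Normal the adjusted p was 0.0391 without the filter and 0.0356 in DESeq2. Adamtsl3, at 22, 17 and 11 reads in the RP libraries, 6, 3 and 6 reads in the Cisplatin libraries and 42, 25 and 38 reads in the Normal libraries, fell in Cisplatin against Normal (-2.88 ± 0.52, adjusted p = 4.04e-04) and rose in RP against Cisplatin (1.58 ± 0.54, adjusted p = 0.0261). The RP against Cisplatin call of Adamtsl3 was lost without Cisplatin replicate 2 (adjusted p = 0.101), RP replicate 1 (0.0959) or RP replicate 2 (0.0528).

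Among the crosslinking enzymes, Lox rose while Loxl1 to Loxl4 fell in Cisplatin against Normal. Lox, the enzyme that crosslinks both collagen and elastin, had 37.8, 26.0 and 27.0 CPM in the RP libraries, 68.9, 57.3 and 38.5 CPM in the Cisplatin libraries and 29.95, 36.2 and 18.9 CPM in the Normal libraries. Every Cisplatin library was above every RP and Normal library, although the lowest Cisplatin library exceeded the highest RP library only slightly. Lox rose in Cisplatin against Normal (0.95 ± 0.25, adjusted p = 0.00540) and fell in RP against Cisplatin (-0.86 ± 0.25, adjusted p = 0.0110). The RP against Cisplatin call was lost without Cisplatin replicate 1 (adjusted p = 0.0538). The difference in response between Lox and its relatives was not tested as such.

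Loxl2 (chr14:69609068-69695834, plus strand), which crosslinks collagen IV of basement membranes, had 11, 22.3 and 12.5 CPM in the RP libraries, 4.35, 3.99 and 2.26 CPM in the Cisplatin libraries and 40.8, 15.7 and 21.5 CPM in the Normal libraries. Normal replicate 1 was the highest library, and all Cisplatin libraries were below all others. The log2 fold change was -2.87 ± 0.39 (adjusted p = 4.10e-05) in Cisplatin against Normal and 2.10 ± 0.39 (adjusted p = 6.42e-04) in RP against Cisplatin. Loxl1, which acts on elastic fibres, had 8.68, 17.5 and 12.6 CPM in the RP libraries, 7.28, 6.94 and 5.23 CPM in the Cisplatin libraries and 18.2, 13.6 and 17 CPM in the Normal libraries. It fell in Cisplatin against Normal (-1.32 ± 0.26, adjusted p = 7.47e-04) and rose in RP against Cisplatin (0.99 ± 0.26, adjusted p = 0.00632), with Cisplatin below every other library.

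Loxl3, required for craniofacial and spinal development in mice, had 21.7, 14.8 and 21.4 CPM in the RP libraries, 10.2, 11.1 and 9.99 CPM in the Cisplatin libraries and 19.2, 21.0 and 18.4 CPM in the Normal libraries. Its Cisplatin libraries were closely grouped below the rest, with -0.90 ± 0.19 (adjusted p = 0.00108) in Cisplatin against Normal and 0.88 ± 0.19 (adjusted p = 0.00150) in RP against Cisplatin. An exon of Htra2 on the other strand lies near the end of Loxl3. Loxl4, with 2, 4 and 5 reads in the RP libraries, 4, 1 and 4 reads in the Cisplatin libraries and 9, 12 and 14 reads in the Normal libraries, was called in Cisplatin against Normal (-2.01 ± 0.70, adjusted p = 0.0258) and not in RP against Cisplatin (0.14 ± 0.78, adjusted p = 0.895). That call was lost without the filter (adjusted p = 0.0758), in DESeq2 (0.0546) and without Normal replicate 2 (0.0645), Normal replicate 3 (0.0877) or Cisplatin replicate 2 (0.108). The summed level of the 5 lysyl oxidases was 79.4, 81.0 and 74.1 CPM in the RP libraries, 91.2, 79.5 and 56.5 CPM in the Cisplatin libraries and 109, 88.0 and 77.5 CPM in the Normal libraries, and these ranges overlapped.

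**Figure D4:**
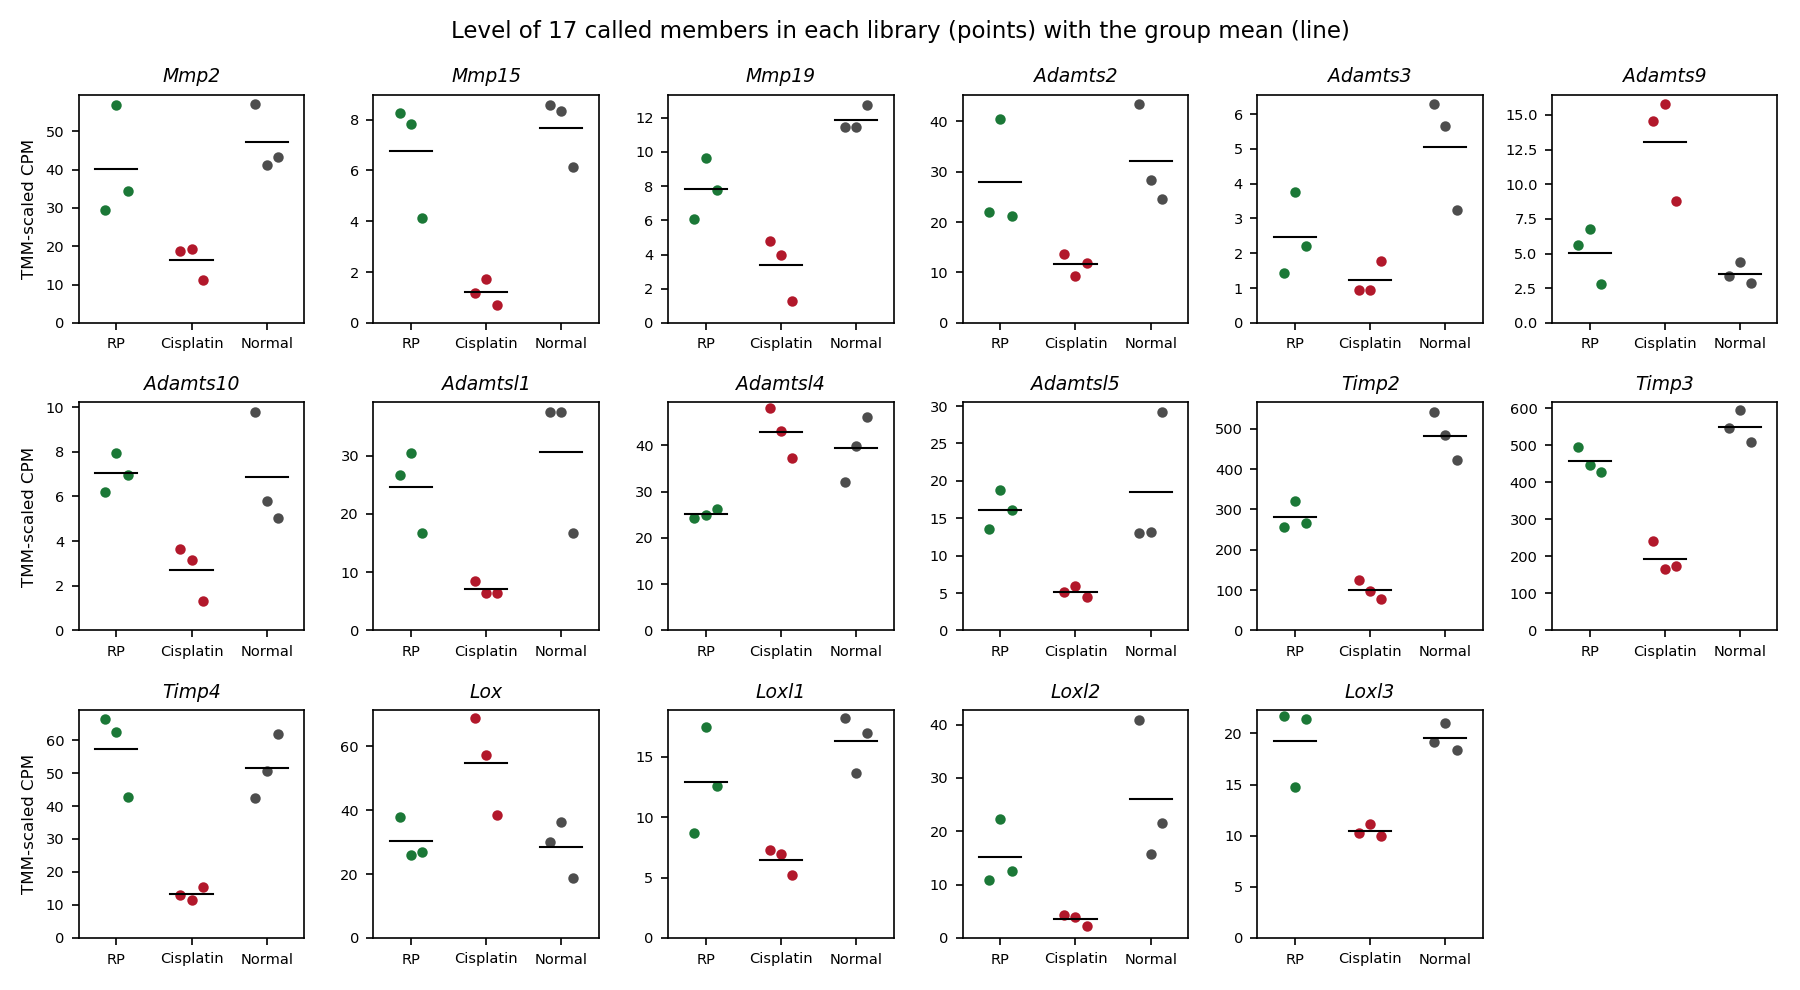
TMM-scaled CPM (y axis, a separate scale from 0 in each panel) of the 17 members that reached 5 CPM in a group and were called in at least 1 comparison, with 1 point per library and a line at the group mean, for RP, Cisplatin and Normal. The Cisplatin points of Timp2, at 125, 98.1 and 77.1 CPM, lie below all others, while those of Adamts9, at 14.6, 15.8 and 8.80 CPM, lie above.

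In RP against Normal the median log2 fold change of the 34 tested members was -0.21, beside -0.0065 over all genes. The smallest unadjusted p values belonged to Timp2 and Adamtsl4. Timp4, Adamts10, Lox, Loxl3 and Mmp15 lay near 0, at 0.15 ± 0.19, 0.035 ± 0.34, 0.095 ± 0.25, -0.020 ± 0.18 and -0.19 ± 0.33. For Loxl2 the value was -0.77 ± 0.34 and for Adamts3 -1.02 ± 0.44. The lowest values belonged to members with few reads. These were Loxl4 (-1.87 ± 0.68), Mmp8 (-1.84 ± 1.0), Mmp23 (-1.40 ± 0.50) and Adamtsl3 (-1.30 ± 0.45). The highest value was that of Adamts9, at 0.50 ± 0.35. A value that misses the threshold does not show that RP and Normal were alike.

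Substrates of these enzymes were taken as a list of 30 matrix genes, of which 28 were tested. In Cisplatin against Normal 25 fell and 1, Thbs1, rose, and in RP against Cisplatin 22 rose and 1, Thbs1 again, fell, where 54.5% and 48.8% of all genes were called. The median log2 fold change was -2.65 in Cisplatin against Normal and 2.09 in RP against Cisplatin, beside -0.076 and 0.068 over all genes. Col1a2, a chain of collagen I, averaged 286 ± 136 CPM in RP, 28.5 ± 1.99 CPM in Cisplatin and 1032 ± 639.8 CPM in Normal (SD, n = 3 each), and was the 1 listed substrate called in RP against Normal (-1.85 ± 0.37, adjusted p = 0.0425). That count of 1, where 0.505% of all genes were called, became 0, 2 or 4 with any 1 library left out. Bgn, a small proteoglycan, averaged 45.1 ± 16.3 CPM in RP, 7.71 ± 1.96 CPM in Cisplatin and 89.4 ± 16.1 CPM in Normal, and its log2 fold change was -3.53 ± 0.27 (adjusted p = 2.85e-07) in Cisplatin against Normal. For both genes the mean was lowest in Cisplatin and highest in Normal. Col6a1, of the microfibrillar collagen VI, gave -3.97 ± 0.30 (adjusted p = 3.03e-07) there, and Nid1, a basement membrane linker, gave -2.30 ± 0.19 (adjusted p = 5.61e-07). Thbs1, a matricellular glycoprotein, averaged 16.9 ± 6.37 CPM in RP, 36.0 ± 9.24 CPM in Cisplatin and 21.1 ± 4.04 CPM in Normal, at 0.77 ± 0.26 (adjusted p = 0.0218) in Cisplatin against Normal.

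Enzymes that hydroxylate, fold, trim or otherwise crosslink collagen were tested in 20 of 23 cases. In Cisplatin against Normal 13 fell and 4 rose (P4hb, Colgalt1, Tgm2 and Qsox1), with a median of -0.75, where 54.5% of all genes were called. In RP against Cisplatin 12 rose and 3 fell, where 48.8% of all genes were called. That total of 15 was 9 without RP replicate 2. Pcolce, an enhancer of procollagen C-terminal processing, averaged 56.3 ± 17 CPM in RP, 7.91 ± 1.31 CPM in Cisplatin and 70.2 ± 11.4 CPM in Normal. Its log2 fold change was -3.15 ± 0.23 (adjusted p = 2.09e-07) in Cisplatin against Normal and 2.83 ± 0.23 (adjusted p = 7.82e-07) in RP against Cisplatin. Pcolce2, its paralog, gave -3.66 ± 0.23 (adjusted p = 8.15e-08) and 2.90 ± 0.23 (adjusted p = 7.87e-07) in these comparisons, and Colgalt2, a collagen galactosyltransferase, gave -3.37 ± 0.48 (adjusted p = 6.24e-05) and 3.27 ± 0.48 (adjusted p = 1.09e-04). Tgm2, a transglutaminase that crosslinks by another chemistry than Lox, averaged 94.5 ± 11.7 CPM in RP, 223 ± 15.4 CPM in Cisplatin and 83.1 ± 18.7 CPM in Normal and rose in Cisplatin against Normal, at 1.42 ± 0.16 (adjusted p = 8.52e-06).

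Of 30 other extracellular proteases and activators, 25 were tested. In Cisplatin against Normal 17 fell and 3 rose (median -1.77), where 28.2% of all genes fell and 26.3% rose (median -0.076). In RP against Cisplatin 16 rose and 3 fell (median 1.0), where 24.6% of all genes rose and 24.2% fell (median 0.068). The 3 that rose in Cisplatin against Normal were Furin, a convertase that activates membrane-type MMPs, Plaur, the urokinase receptor, and Ctsl, a lysosomal cysteine protease. Ctsl averaged 187 ± 16.5 CPM in RP, 512 ± 62.8 CPM in Cisplatin and 118 ± 15.9 CPM in Normal, at 2.12 ± 0.15 (adjusted p = 1.51e-07) in Cisplatin against Normal and -1.45 ± 0.14 (adjusted p = 4.35e-06) in RP against Cisplatin. Furin averaged 53.2 ± 3.65 CPM in RP, 79.3 ± 4.17 CPM in Cisplatin and 45.8 ± 2.69 CPM in Normal, at 0.79 ± 0.12 (adjusted p = 1.25e-04) in Cisplatin against Normal, and Plaur 1.02 ± 0.470 CPM in RP, 7.28 ± 4.05 CPM in Cisplatin and 0.469 ± 0.413 CPM in Normal, at 3.91 ± 0.67 (adjusted p = 2.68e-04). All 3 had their highest mean in Cisplatin. Fap, a surface protease of fibroblasts, averaged 10.8 ± 3.65 CPM in RP, 1.85 ± 0.691 CPM in Cisplatin and 15.2 ± 1.63 CPM in Normal and fell in Cisplatin against Normal (-3.01 ± 0.32, adjusted p = 5.04e-06). Pcsk6, a convertase, gave -4.13 ± 0.36 (adjusted p = 9.46e-07) there. Tpsb2, a tryptase of mast cells, averaged 10.6 ± 3.6 CPM in RP, 0.593 ± 0.744 CPM in Cisplatin and 21.9 ± 2.23 CPM in Normal, at -5.27 ± 0.54 (adjusted p = 3.53e-06) in Cisplatin against Normal.

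Other protease inhibitors were tested in 15 of 20 cases. Cisplatin against Normal gave 8 that fell and 4 that rose (median -0.82), where 28.2% of all genes fell and 26.3% rose. RP against Cisplatin gave 6 that rose and 4 that fell (median 0.93), where 24.6% of all genes rose and 24.2% fell. The share that rose in Cisplatin against Normal was near that of all genes. Those that rose in Cisplatin against Normal included Serpina3n, a serine protease inhibitor, and the cysteine protease inhibitors Cstb and Cst6. Serpina3n averaged 9.80 ± 1.48 CPM in RP, 112 ± 71.7 CPM in Cisplatin and 9.95 ± 5.10 CPM in Normal, at 3.49 ± 0.51 (adjusted p = 7.58e-05) in Cisplatin against Normal. Among those that fell, Serpinf1, an antiangiogenic serpin, averaged 29.9 ± 12.1 CPM in RP, 2.97 ± 1.26 CPM in Cisplatin and 47.2 ± 8.87 CPM in Normal (-3.96 ± 0.33, adjusted p = 6.64e-07 in Cisplatin against Normal). Itih5, a hyaluronan-binding protein of the inter-alpha-trypsin inhibitor family, gave -3.37 ± 0.20 (adjusted p = 5.36e-08), Wfdc1 gave -3.47 ± 0.26 (adjusted p = 2.38e-07) and Serpine2 gave -1.77 ± 0.19 (adjusted p = 4.61e-06) in that comparison.

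Of 28 listed regulators known to act on protease genes, 24 were tested. Of these, 8 rose and 7 fell in Cisplatin against Normal (median 0.17), where 26.3% of all genes rose and 28.2% fell. RP against Cisplatin gave 4 that rose and 13 that fell (median -0.51), a total of 17 that was 10 without Cisplatin replicate 2, where 24.6% of all genes rose and 24.2% fell. The counts in Cisplatin against Normal were near these shares of all genes. AP-1 subunits, named after their values were seen, were split in Cisplatin against Normal: Fosl1 (3.19 ± 0.64, adjusted p = 8.70e-04), Fosl2 (1.32 ± 0.24, adjusted p = 4.51e-04), Junb (1.99 ± 0.34, adjusted p = 2.93e-04) and Jun (0.59 ± 0.19, adjusted p = 0.0160) rose. Fos (-1.99 ± 0.40, adjusted p = 8.94e-04) and Fosb (-3.52 ± 0.68, adjusted p = 6.50e-04) fell. Cebpd, an inflammatory transcription factor, averaged 199 ± 26.3 CPM in RP, 709 ± 136 CPM in Cisplatin and 127 ± 40.5 CPM in Normal, and rose in Cisplatin against Normal (2.49 ± 0.22, adjusted p = 1.05e-06). Rela, a subunit of NF-kappa B, rose as well (1.17 ± 0.17, adjusted p = 5.40e-05). Smad3, which carries the TGF-beta signal, averaged 39.5 ± 13.4 CPM in RP, 8.71 ± 1.47 CPM in Cisplatin and 46.5 ± 8.33 CPM in Normal and fell (-2.41 ± 0.25, adjusted p = 3.65e-06), as did Tgfb2, a ligand of that pathway (-1.34 ± 0.18, adjusted p = 3.42e-05).

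Markers of cells that are known to express these genes were counted as well. Over all genes, 54.5% were called in Cisplatin against Normal and 48.8% in RP against Cisplatin. Of 8 markers of fibroblasts and fibro-adipogenic progenitors, 7 fell in Cisplatin against Normal and all 8 rose in RP against Cisplatin, with sums of 3196 to 4454 CPM in RP, 578 to 1278 CPM in Cisplatin and 3878 to 5192 CPM in Normal. Decorin is counted both there and among the substrates. All 7 markers of smooth muscle and pericytes fell in Cisplatin against Normal and rose in RP against Cisplatin, with sums of 391 to 475 CPM in RP, 143 to 221 CPM in Cisplatin and 440.5 to 514 CPM in Normal. Of 7 macrophage markers 6 fell and 1 rose in Cisplatin against Normal, and 5 rose and 1 fell in RP against Cisplatin, with sums of 97.5 to 146 CPM in RP, 46.3 to 77.8 CPM in Cisplatin and 187 to 239 CPM in Normal. Of 7 endothelial markers 3 fell and 1 rose in Cisplatin against Normal, and 2 rose and 1 fell in RP against Cisplatin. The endothelial totals called were near the shares of all genes. Endothelial sums were 283 to 359 CPM in RP, 219.9 to 301 CPM in Cisplatin and 350.3 to 401 CPM in Normal. The part of these cell types in the values of the members was not tested.

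Over all genes, 54.5% were called in Cisplatin against Normal, 48.8% in RP against Cisplatin and 0.505% in RP against Normal. Tendon, which joins the muscle, was marked by 7 genes, of which 6 were tested. All 6 fell in Cisplatin against Normal and rose in RP against Cisplatin, and 3 fell in RP against Normal, with sums of 56.7, 84.9 and 55.8 CPM in the RP libraries, 12.1, 5.99 and 12.3 CPM in the Cisplatin libraries and 389, 193 and 201 CPM in the Normal libraries. The 3 groups were separate, with Normal replicate 1 far above the other Normal libraries, the same library that was highest for Loxl2. The count of 3 in RP against Normal was 1 without Normal replicate 1, 2 without RP replicate 1 or RP replicate 3, and 5 without Cisplatin replicate 3. Kera, keratocan, named after its values were seen, had 16, 16 and 2 reads in the RP libraries, no read in the 3 Cisplatin libraries and 149, 70 and 35 reads in the Normal libraries. With RP and Cisplatin fitted alone, 3 of the 6 were called in place of 6. Of 6 Schwann cell markers 4 fell in Cisplatin against Normal and 4 rose in RP against Cisplatin, with sums of 199.9 to 379 CPM in RP, 56.5 to 138 CPM in Cisplatin and 216 to 367 CPM in Normal. Of 4 tested satellite cell markers 1 fell in Cisplatin against Normal and 1 rose in RP against Cisplatin, with sums of 17.4 to 20.9 CPM in RP, 8.21 to 13.4 CPM in Cisplatin and 11.6 to 16.5 CPM in Normal, and the count of 1 in RP against Cisplatin was 2 without Cisplatin replicate 1 or RP replicate 2. Of the 8 muscle fibre markers 5 fell and 0 rose in Cisplatin against Normal (median -0.85), where 28.2% of all genes fell and 26.3% rose. In RP against Cisplatin 5 of these markers rose and 0 fell (median 0.99), where 24.6% of all genes rose and 24.2% fell. The muscle fibre totals over both directions were near the shares of all genes called, but all calls went the same way within each comparison. The part of any of these in the members' values was not tested.

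**Figure D5:**
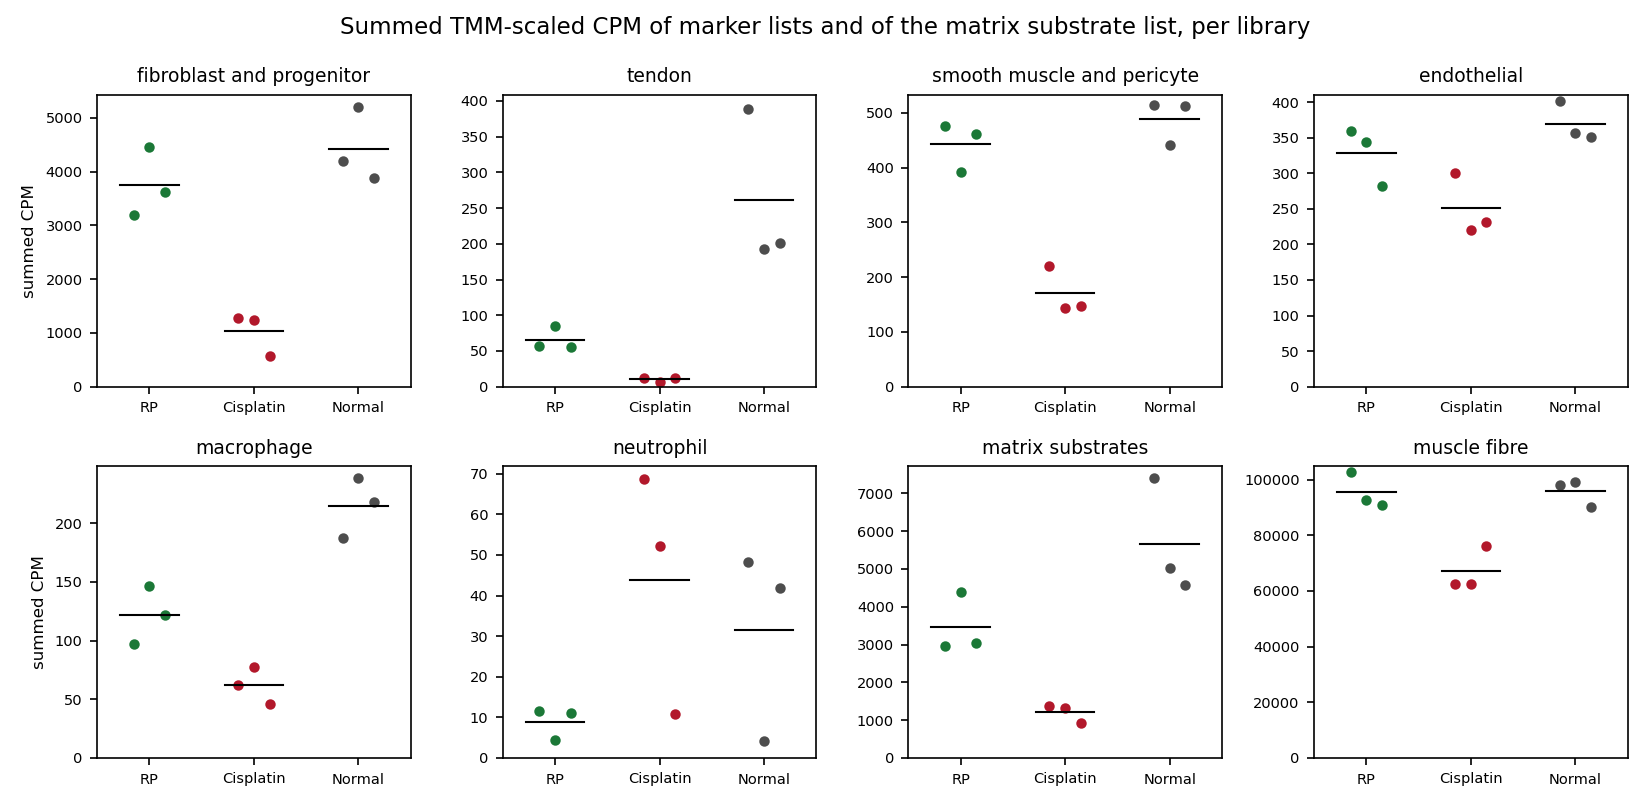
Summed TMM-scaled CPM (y axis, a separate scale from 0 in each panel) of 7 marker lists and of the matrix substrate list, with 1 point per library and a line at the group mean, for RP, Cisplatin and Normal. The fibroblast sums are 3196 to 4454 CPM in RP, 578 to 1278 CPM in Cisplatin and 3878 to 5192 CPM in Normal.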

How the data were processed

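Gastrocnemius RNA (Trizol) went into Lexogen QuantSeq 3′ libraries, per the labels' protocols. The authors deposited raw read counts per gene symbol, 1 file per library. The submitters' processing notes name Bowtie2, edgeR and the mm10 build. The sources used here give no version, annotation or strand setting. From the deposited counts, 79 rows sharing 35 symbols were summed to 23238 symbols. edgeR 4.0.16 (R 4.3.3) was run with filterByExpr (12859 genes), TMM, glmQLFit over the 9 libraries (a coefficient for each group) and glmQLFTest. Benjamini-Hochberg adjustment ran over all genes tested. SE is the log2 fold change over the square root of F. The procedure was tested on simulated data. Replicates of a group differed by a chi-square of 11.3 to 28.9 per degree of freedom, so none was a copy of another. Reads carry no molecular identifiers, so floors of 3 counts cover counting error only.

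The members and lists were chosen with earlier results of these data known. Described with a value per library are members that passed the filter, reached a mean of 5 CPM in a group and were called at least once. Those at 5 CPM and not called are given by means, Mmp14 also by library. From each pathway list come up to 4 genes of smallest adjusted p in Cisplatin against Normal and called genes of opposite sign. Members given as reads, Mmp9, Timp1 and Mmp11 among them, were named after their values were seen. Alternatives were RLE scaling, library size only, no filter, 5 CPM in 3 libraries, DESeq2 1.42.0, fits of the compared groups only, a replicate block and omitting each library in turn. Positions are GENCODE M21 on GRCm38, and promoters are RefSeq's on GRCm38.p6. Protein sequences were not used here, and 1 gene of the inhibitor list is counted but not reported here. Figures used matplotlib 3.10.9.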

Additional observations from a re-analysis of the deposited data

How the results depend on the processing

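The 19 members that fell and 3 that rose in Cisplatin against Normal were 18 to 21 and 2 to 4 with 1 library left out, and the 16 that rose and 4 that fell in RP against Cisplatin were 14 to 16 and 3 to 4. In Cisplatin against Normal, 5 members rose without the filter and in DESeq2. In RP against Normal, members that fell numbered 2 without the filter, 2 in DESeq2, 1 with these groups fitted alone, 1 with the replicate block and 0 to 1 with 1 library left out. Neutrophil markers called numbered 3 without the filter, 0 with a filter of 5 CPM in 3 libraries, 2 in DESeq2 and 1 to 2 with 1 library left out in Cisplatin against Normal, and 1 with that filter, 2 in DESeq2 and 1 to 4 with 1 library left out in RP against Cisplatin. Satellite cell markers called were 0 with the 5 CPM filter in Cisplatin against Normal, and in RP against Cisplatin 2 with library size only, 2 with the replicate block and 1 to 2 with 1 library left out. In RP against Cisplatin with 1 library left out, collagen processing gave 9 to 15 and regulators 10 to 17, and tendon markers gave 3 with these groups fitted alone. In RP against Normal, counts without the filter and in DESeq2 were 2 and 1 for other proteases, 1 and 1 for inhibitors, 1 and 1 for collagen processing, 9 and 7 for substrates, 5 and 1 for regulators, 2 and 2 for fibroblasts, 5 and 5 for tendon and 3 and 2 for macrophages, and without the filter 1 for muscle fibre and 1 for neutrophils. With RP and Normal fitted alone they were 1 for fibroblasts and 1 for macrophages. Substrates gave 0 with library size only, with the 5 CPM filter and with the replicate block. With 1 library left out the ranges were 0 to 4 for substrates, 0 to 3 for regulators, 1 to 5 for tendon and 0 to 1 for proteases, inhibitors, muscle fibre, fibroblasts and macrophages.

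Among the members described, signs turned in values that were not called. Mmp14 in Cisplatin against Normal was 0.00087 with RLE scaling and 0.0059 in DESeq2, and Loxl3 in RP against Normal was 0.045 with library size only. With 1 library left out, log2 fold changes were -0.31 to 0.33 for Mmp14, -0.16 to 0.63 for Mmp9 and -0.18 to 0.52 for Timp1 in Cisplatin against Normal. They were -0.15 to 0.21 for Adamts1, -0.34 to 0.43 for Loxl4, -0.030 to 0.45 for Mmp14, -0.13 to 0.38 for Mmp9 and -1.32 to 0.11 for Timp1 in RP against Cisplatin. They were -0.14 to 0.38 for Adamts10, -0.57 to 0.081 for Adamts2, -0.39 to 0.31 for Adamtsl5, -0.12 to 0.32 for Lox, -0.11 to 0.14 for Loxl3, -0.044 to 0.47 for Mmp14, -0.36 to 0.074 for Mmp15 and -1.11 to 0.34 for Timp1 in RP against Normal. The cause of these changes was not tested. Library size as the only scaling moved the median log2 fold change of all genes from 0.068 to 0.21 in RP against Cisplatin, and changes are given relative to the TMM scale. Same-numbered libraries correlated by -0.15 to 0.18 in their deviations from group means, and libraries of different numbers by -0.21 to 0.13. The highest values were those of Cisplatin with RP at replicate 2 (0.18) and at replicate 3 (0.17). These values do not settle whether the numbers mark pairs. The labels do not say so, and the main fit did not take the numbers as pairs. The replicate block lost the Mmp16 call in RP against Cisplatin (adjusted p = 0.0848), gave Timp2 a call in RP against Normal (0.0490) and changed no other call of a described member. Few reads limit the genes given as reads: a difference there may not be detectable at this depth.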

Other observations

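Plasminogen activation, which can activate MMP precursors outside the cell, was looked at gene by gene after its values were seen. Plau, urokinase, averaged 12.8 ± 2.17 CPM in RP, 3.52 ± 1.81 CPM in Cisplatin and 17.5 ± 3.30 CPM in Normal (SD, n = 3 each), with a log2 fold change of -2.31 ± 0.32 (adjusted p = 4.20e-05) in Cisplatin against Normal and 1.85 ± 0.32 (adjusted p = 3.27e-04) in RP against Cisplatin by edgeR. Its receptor Plaur gave 3.91 ± 0.67 (adjusted p = 2.68e-04) and -2.83 ± 0.59 (adjusted p = 0.00149). The activator fell while its receptor rose in Cisplatin against Normal. Plat, the tissue activator, was not called, at -0.96 ± 0.53 (adjusted p = 0.144) and 0.99 ± 0.53 (adjusted p = 0.136). Plg, plasminogen itself, averaged 13.8 ± 7.07 CPM in RP, 6.96 ± 4.16 CPM in Cisplatin and 12.0 ± 4.12 CPM in Normal. It was not called either, at -0.77 ± 0.46 (adjusted p = 0.175) and 0.97 ± 0.46 (adjusted p = 0.0933).

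The 3 mast cell proteases of the protease list were also picked after their values were seen. Mcpt4, a chymase, had 27, 33 and 11 reads in the RP libraries, 0, 0 and 0 reads in the Cisplatin libraries and 53, 69 and 48 reads in the Normal libraries. Cma1, another chymase, had 39, 57 and 25 reads in the RP libraries, 1, 4 and 3 reads in the Cisplatin libraries and 44, 54 and 49 reads in the Normal libraries, and the tryptase Tpsb2 had 84, 148 and 82 reads in the RP libraries, 3, 0 and 12 reads in the Cisplatin libraries and 176, 211 and 167 reads in the Normal libraries. The Cisplatin libraries were the lowest 3 for each gene. In RP against Cisplatin the log2 fold change was 3.75 ± 0.50 (adjusted p = 4.99e-05) for Cma1 and 4.22 ± 0.55 (adjusted p = 3.88e-05) for Tpsb2. All 3 rose there, and no fold is given for Mcpt4, which had no read in Cisplatin.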
